A study of Mus musculus with 3 samples.

Results

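Collagens and laminins build the sheet and the fibres on which every brain vessel rests, and the 55 genes described here are all the rows of the count tables named as a collagen chain (Col, a number, a, a number; 44 genes) or a laminin chain (Lama, Lamb or Lamc and a number; 11 genes). They were picked out of 31053 genes by their names, with earlier results of these data known. The question was which cell class of the aged hippocampus holds the RNA of which chain. The samples formed 1 group, hippocampus of wild-type C57BL/6 mice aged 2 years, in 3 single-cell libraries (10x Genomics 3′ chemistry) that were treated as replicates 1, 2 and 3. In the title of replicate 3 the age is written as 25 months. The design text speaks of 6 hippocampi without saying which animals went into which library. The p-values therefore measure how differences between classes vary over these libraries, a spread that may be partly technical. The tissue had been digested with papain at about 20 units per ml and passed over myelin removal beads.

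A basement membrane is woven from 2 networks. Laminins are cross-shaped trimers of an alpha, a beta and a gamma chain that polymerise at the cell surface, and collagen IV is a trimer of alpha chains that is cross-linked into a lasting mesh. Fibrillar collagens, such as types I and III, form the ropes of the tissue around larger vessels. In the brain, endothelial cells and pericytes share an inner membrane, and the end-feet of astrocytes add an outer one.

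After filtering, 6222, 946 and 4932 cells remained in replicates 1, 2 and 3. Classes were formed without the collagens, the laminins and the listed matrix genes, and each carried at least 2 of 3 rule markers: endothelial cells (Cldn5, Flt1, Pecam1; 4266 cells), pericytes (Vtn, Kcnj8, Abcc9; 304), smooth muscle (Acta2, Myh11, Tagln; 58), fibroblasts (Dcn, Lum, Slc6a13; 50), astrocytes (Slc1a2, Aqp4, Gja1; 2638), oligodendrocyte precursors, OPCs (Pdgfra, Cspg4, C1ql1; 302) and ependymal cells (Ccdc153, Tmem212, Foxj1; 1071). Replicate 2 held only 3 smooth muscle cells and 7 fibroblasts, so these 2 classes entered means and tests with replicates 1 and 3. Values are CPM, in which the UMIs of a gene (unique molecular identifiers, 1 per captured transcript) are scaled to the summed UMIs of the class in that library. In 3′ data a transcript gives 1 tag whatever its length, so values were not divided by length, and the tests compare each chain between classes. Shares of chains within a class are shares of captured transcripts. The summed depth ran from 3826609 to 20085408 UMIs per library in endothelial cells, from 150486 to 863368 in pericytes and from 78278 to 200206 in fibroblasts.

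Several libraries and droplets stood apart. Among the 5 endothelial clusters, one held 1293, 23 and 81 cells of replicates 1, 2 and 3, another 10, 1 and 995, and one more 20, 225 and 13, so these endothelial states were split by library. Of 304 pericytes, 60 carried at least 3 UMIs of Cldn5, Flt1 and Pecam1, and the summed level of these endothelial markers in pericytes was 1822 to 4786 CPM, against 9559 to 10418 CPM in endothelial cells. Erythrocyte droplets held 6364 to 8577 CPM of the same markers. Between the libraries, 3, 12 and 2 cell barcodes were shared. Of the 60 marker-bearing pericytes, 55 lay in a pericyte subcluster of 58 cells with a median of 10740 UMIs, with Acta2, Myh11 and Tagln among its 10 leading genes. The 58 cells gave 65.7%, 38.3% and 23.7% of the pericyte UMIs of replicates 1, 2 and 3. The counts of chains called in the pericyte comparisons are given with all cells, without the 60 cells and without the 58 cells, and levels and shares with all cells unless stated.

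Fibroblasts held most of the chains. Of the 55 genes, 37 reached 20 CPM in at least 1 of the 7 classes, and 24 of these 37 were at their highest mean in fibroblasts, 5 in OPCs, 3 in smooth muscle, 3 in ependymal cells, 1 in pericytes, 1 in astrocytes and 0 in endothelial cells. The summed level of all 55 was 8826 ± 128 CPM in fibroblasts (SD, n = 2), 1837 ± 228 CPM in pericytes (SD, n = 3), 1469 ± 110 CPM in smooth muscle (SD, n = 2) and 838 ± 16.5 CPM in endothelial cells (SD, n = 3). Without the 60 marker-bearing cells the pericyte sum was 2246 CPM. No UMI of Col10a1 or Col19a1 was found in any kept cell.

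**Figure D1:**
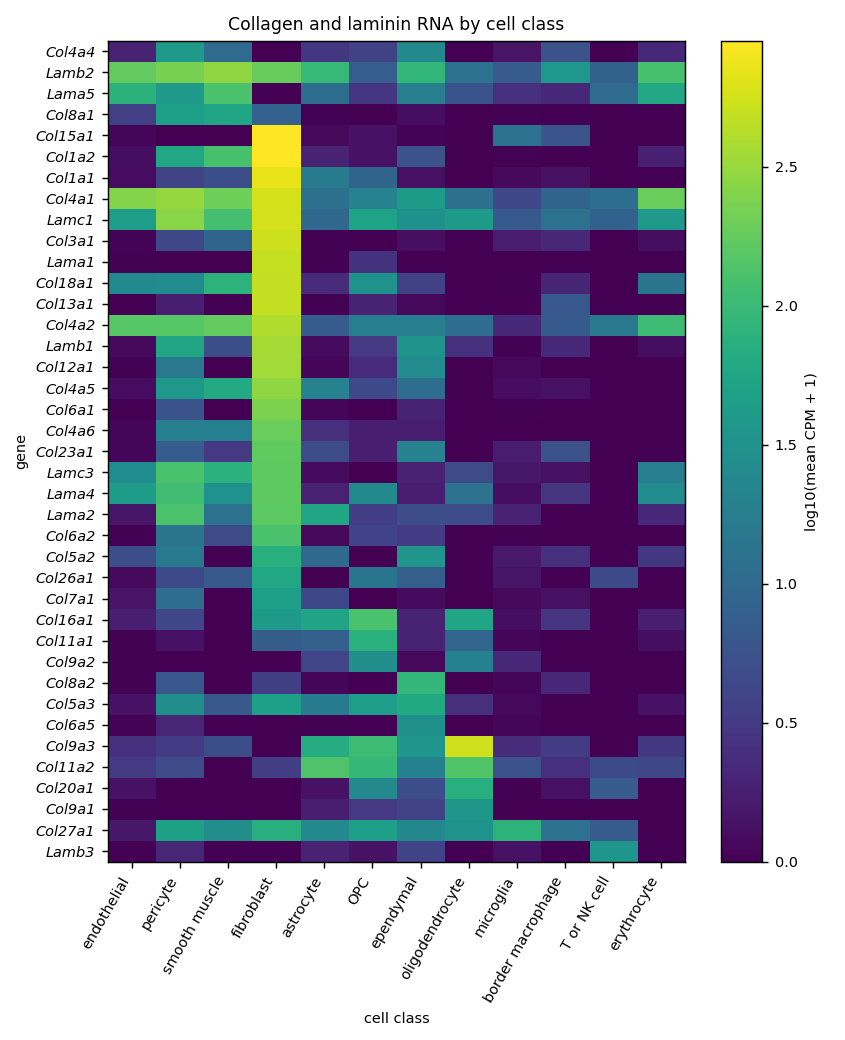
Mean level of each chain (rows, italic) in 12 cell classes (columns), as log10 of mean CPM plus 1 over the libraries with at least 10 cells of the class; the 39 chains that reached 20 CPM in some class are drawn. The fibroblast column is bright for most collagens, while Col4a1, Col4a2, Lamb2, Lama5 and Lamc1 are above 40 CPM in both endothelial cells and smooth muscle.

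Each class was tested against the unweighted mean of the other classes on the log scale, in 1 edgeR quasi-likelihood fit of summed UMIs with library as a block. A log2 change there is a difference of mean logs, so classes near 0 weigh heavily and a chain can be called higher in a class although one other class holds far more of it. The classes had been formed from other genes of the same cells, and the tests describe classes built that way. The low-count filter kept 12287 genes and 40 of the 55 chains, and the other 15 have levels only. A chain held by a single class could pass the filter through that class, and its direction was then given. Counts of libraries that were higher or lower (3 of 3) are on TMM-scaled values. Called means a Benjamini-Hochberg adjusted p under 0.05 over all 12287 genes. A call sets no minimum level. Mean levels reached 20 CPM for 8 chains in endothelial cells, 16 in pericytes, 12 in smooth muscle and 27 in fibroblasts. The same held for 6 chains in astrocytes, 11 in OPCs and 12 in ependymal cells.

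The 6 collagen IV genes lie in 3 head-to-head pairs in the mouse genome (GRCm38, GENCODE starts). The Col4a1 and Col4a2 starts on chromosome 8 overlap by 22 bases, the Col4a4 and Col4a3 starts on chromosome 1 are separated by 71 bases, and the Col4a6 and Col4a5 starts on chromosome X by 1308 bases. The upstream sequences of the Col4a4 and Col4a3 pair and of the Col4a6 and Col4a5 pair are shown because their levels set pericytes and fibroblasts apart from endothelial cells, as described next. They come from the RefSeq promoter table (GRCm38.p6), which matched 40 of the 55 chains, and were trimmed to the bases before the annotated start of transcription, written 5′ to 3′ on the strand of the named gene. Capitals mark a GC box (GGGCGG on either strand) or a CCAAT box (CCAAT on either strand).
Col4a4, chr1:82586850-82586920, minus strand: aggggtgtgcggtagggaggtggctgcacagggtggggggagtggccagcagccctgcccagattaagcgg
Col4a6, chrX:141474077-141474326, minus strand: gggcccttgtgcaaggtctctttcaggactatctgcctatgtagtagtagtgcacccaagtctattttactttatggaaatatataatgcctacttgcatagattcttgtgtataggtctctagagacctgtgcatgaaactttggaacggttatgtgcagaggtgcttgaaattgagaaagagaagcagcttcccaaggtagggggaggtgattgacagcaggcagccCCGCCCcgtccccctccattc
Col4a5, chrX:141475169-141475384, plus strand: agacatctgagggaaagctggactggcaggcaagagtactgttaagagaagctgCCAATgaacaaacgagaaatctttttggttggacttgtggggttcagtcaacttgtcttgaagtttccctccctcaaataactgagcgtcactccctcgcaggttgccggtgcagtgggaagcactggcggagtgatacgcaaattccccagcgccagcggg
The Col4a4 stretch is the whole gap between its start and that of Col4a3, has 69.0% G or C and holds neither box. In the same window only 20.7% of all promoters hold a GC box and 13.3% a CCAAT box, so having neither is common. The Col4a6 stretch of 250 bases holds 1 GC box, which 32.7% of all 32851 RefSeq promoters hold in the same window. The Col4a5 stretch of 216 bases holds 1 CCAAT box, which 30.5% of promoters hold in theirs.

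The common pair of collagen IV, Col4a1 and Col4a2, which form the trimer of nearly all basement membranes, was at high level in all 4 vascular classes. Col4a1 stood at 619 and 549 CPM in fibroblasts of replicates 1 and 3, at 295, 299 and 329 CPM in pericytes of replicates 1, 2 and 3, at 211 and 185 CPM in smooth muscle, and at 276, 273 and 215 CPM in endothelial cells. Col4a2 stood at 330 and 473 CPM in fibroblasts, at 161, 179 and 118 CPM in pericytes, at 166 and 185 CPM in smooth muscle and at 168, 146 and 142 CPM in endothelial cells. For both genes the fibroblast libraries lay above all others, while pericytes, smooth muscle and endothelial cells lay close together. Outside the vessel the mean Col4a1 level was 39.4 ± 5.37 CPM in ependymal cells, 19.5 ± 2.79 CPM in OPCs, 11.3 ± 1.83 CPM in astrocytes and 3.26 ± 2.58 CPM in microglia (SD, n = 3 each). With each cell thinned to 1000 UMIs, a Col4a1 UMI was found in 29.6% ± 6.15 of pericytes, 21.9% ± 2.57 of endothelial cells and 0.821% ± 1.13 of microglia, which served as the background (SD, n = 3 each); unthinned these shares were 58.2%, 74.1% and 3.05%.

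Col4a3 and Col4a4, the chains known from the filter of the kidney glomerulus, were held by pericytes. Col4a3 stood at 16.2, 19.9 and 22.4 CPM in pericytes (14, 3 and 7 UMIs), against 0.995 ± 0.479 CPM in endothelial cells (SD, n = 3). Col4a4 stood at 26.6, 39.9 and 47.9 CPM in pericytes and at 25.5, 21.3 and 24.2 CPM in ependymal cells, where Col4a3 had a single UMI. No UMI of either gene was found in the 50 fibroblasts, where 3 counts would have meant 14.98, 37.7 and 38.3 CPM in replicates 1, 2 and 3; these floors cover counting error only. Col4a3 was higher in pericytes than in the other classes by a log2 change of 6.38 ± 0.77 (SE, edgeR adjusted p = 1.0e-07, higher in 3 of 3 libraries) and Col4a4 by 5.06 ± 0.57 (SE, edgeR adjusted p = 1.1e-08, 3 of 3). With 2.07 CPM in the next of the 7 classes, Col4a3 passed the low-count filter largely through pericytes. Its direction was then given, and its test is no separate support.

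Col4a5 and Col4a6, which assemble with each other around smooth muscle, were highest in fibroblasts. Col4a5 stood at 249.7 and 332 CPM in fibroblasts, 37.3 and 88.8 CPM in smooth muscle, 22.0, 53.2 and 35.2 CPM in pericytes and 18.9, 20.6 and 17.9 CPM in astrocytes. Col4a6 stood at 199.8 and 179 CPM in fibroblasts, 20.7 and 14.8 CPM in smooth muscle and 11.6, 26.6 and 16.0 CPM in pericytes, and had only 29 UMIs in all astrocytes. Endothelial cells were near 0 for both, at 0.241 ± 0.298 CPM of Col4a5 and 0.114 ± 0.134 CPM of Col4a6 (SD, n = 3 each). Against the other classes fibroblasts were higher by 7.67 ± 0.44 log2 for Col4a5 (SE, edgeR adjusted p = 2.5e-15, 2 of 2 libraries) and by 8.87 ± 0.62 log2 for Col4a6 (SE, edgeR adjusted p = 3.3e-12, 2 of 2).

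**Figure D2:**
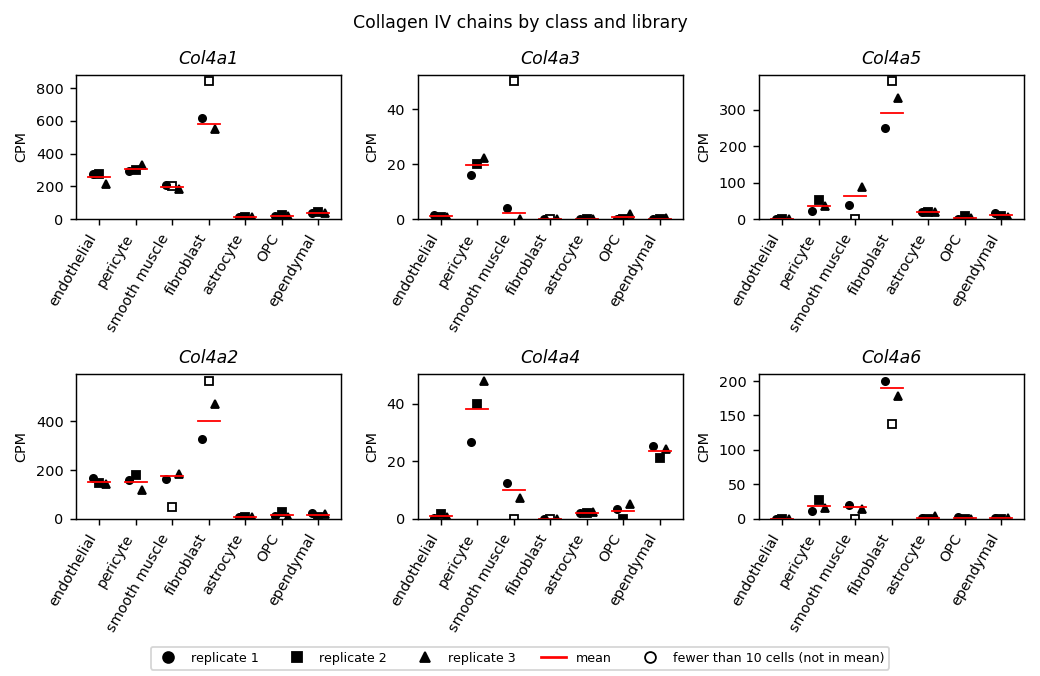
CPM of the 6 collagen IV chains (vertical axes, linear from 0) in 7 classes, 1 symbol per library, with the mean as a red line; open symbols are libraries with fewer than 10 cells of the class, which are outside the mean. Col4a1 and Col4a2 are shared by the 4 vascular classes, Col4a3 is at 16.2 to 22.4 CPM in pericytes, and Col4a5 and Col4a6 are at 179 to 332 CPM in fibroblasts.

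In endothelial cells 11 of the 40 tested chains were called higher and 0 lower, while 29.9% of all tested genes were called higher and 8.37% lower. That share of chains higher is near the background and is no result about the chains. The median log2 change was -1.58 over the 40 chains and 0.19 over all genes. At an unadjusted p under 0.05 the count lower was also 0, whereas DESeq2 called 8 higher and 22 lower. Among the chains higher by edgeR were Col4a1 by 2.95 ± 0.16 log2 (SE, edgeR adjusted p = 8.9e-18), Col4a2 by 2.75 ± 0.15 (SE, edgeR adjusted p = 2.1e-17), Lama5, Lama4, Lamb2 and Lamc3.

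The laminin alpha chain, which carries the cell-binding end of the trimer, differed by class. Lama5, the alpha chain linked in mice to the barrier to leukocytes, stood at 69.6, 79.2 and 84.2 CPM in endothelial cells and at 120.1 and 133 CPM in smooth muscle. Pericytes were uneven, at 76.4, 13.3 and 25.6 CPM, and the 50 fibroblasts had no Lama5 UMI. Lama4, which is found along all vessels, stood at 43.8, 39.5 and 43.8 CPM in endothelial cells, at 70.7, 126 and 131 CPM in pericytes and at 125 and 204 CPM in fibroblasts.

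Lama2, the alpha chain of muscle membranes that is mutated in one form of muscular dystrophy, stood at 64.9, 186 and 140.6 CPM in pericytes, 119.9 and 204 CPM in fibroblasts and 55.3, 63.8 and 45.8 CPM in astrocytes. Endothelial cells held 0.466 CPM on average. Lama2 took 74.3% ± 3.49 of all Lama UMIs in astrocytes (SD, n = 3), 44.6% ± 14.1 in pericytes (SD, n = 3) and 0.368% ± 0.109 in endothelial cells (SD, n = 3). Lama1, an alpha chain of the meninges and of early embryos, stood at 265 and 715 CPM in fibroblasts, and not a single UMI was found in pericytes. The 2 fibroblast libraries thus lay far apart for Lama1.

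The beta chain of endothelial cells was Lamb2. It stood at 146, 142 and 235 CPM there, at 265 and 318 CPM in smooth muscle, at 204, 213 and 256 CPM in pericytes and at 149.8 and 217 CPM in fibroblasts. Lamb2 made up 99.9% ± 0.112 of Lamb1, Lamb2 and Lamb3 UMIs in endothelial cells, 98.9% ± 0.50 in astrocytes and 81.8% ± 12.3 in pericytes (SD, n = 3 each), but 34.1% ± 1.10 in fibroblasts (SD, n = 2), where Lamb1 stood at 279.7 and 434 CPM. Lamb1 in pericytes stood at 12.7, 93.0 and 54.3 CPM. Lamc1, the gamma chain of most trimers, stood at 599 and 537 CPM in fibroblasts, 167, 312 and 316 CPM in pericytes, 145 and 96.2 CPM in smooth muscle and 45.9, 42.1 and 43.8 CPM in endothelial cells. Lamc3, a rarer gamma chain, stood at 165 and 166 CPM in fibroblasts, 78.8, 113 and 185 CPM in pericytes, 33.1 and 118 CPM in smooth muscle and 20.0, 33.7 and 24.8 CPM in endothelial cells.

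**Figure D3:**
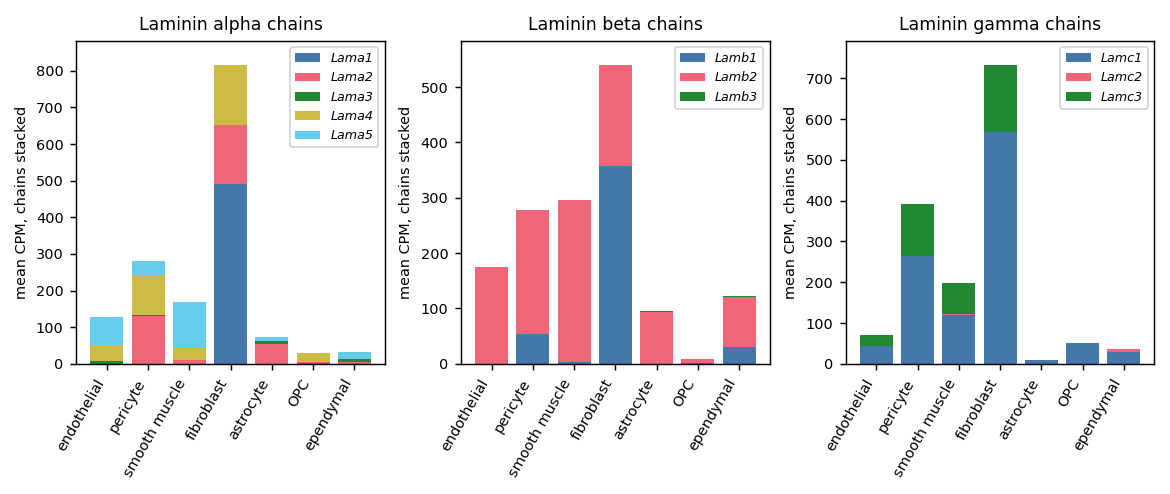
Stacked mean CPM (vertical axes, from 0) of the laminin alpha, beta and gamma chains in 7 classes; bars have no error bar, and the per-library values are in the text. The alpha bar is mostly Lama5 in endothelial cells and smooth muscle, mixes Lama2 and Lama4 in pericytes, is mostly Lama1 in fibroblasts and mostly Lama2 in astrocytes.

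Pericytes and endothelial cells lie on the 2 sides of one membrane, so they were set against each other. Of the 40 chains 23 were called higher in pericytes and 1 lower, against 14.1% and 11.0% of all genes. The median log2 change was 2.70 over the chains and -0.04 over all genes. Only 16 chains reached 20 CPM in pericytes, among them Col4a1, Col4a2 and Lama5, so some of the 23 were low there. Col6a1, called higher at a pericyte mean of 4.63 CPM, was not called without replicate 1. Lama2 was higher by 7.47 ± 0.39 log2 (SE, edgeR adjusted p = 5.4e-17), Lamb1 by 7.20 ± 0.65 (SE, edgeR adjusted p = 3.6e-11), Lamc1 by 2.27 ± 0.24 (SE, edgeR adjusted p = 2.0e-09) and Lamc3 by 2.04 ± 0.29 (SE, edgeR adjusted p = 9.0e-07), each in 3 of 3 libraries. Lama5 was the 1 chain called lower, by -0.79 ± 0.28 log2 (SE, edgeR adjusted p = 0.031). By CPM pericytes were lower in replicates 2 and 3 and higher in replicate 1, and after TMM scaling they were lower in all 3. In replicate 1 the pericyte subcluster of 58 cells gave 65.7% of pericyte UMIs, and 34 of its 36 cells there carried endothelial markers. The Lama5 call was lost without replicate 2 (-0.55, adjusted p = 0.24) and without replicate 3 (-0.58, adjusted p = 0.21), with RLE scaling (adjusted p = 0.08) and with DESeq2 (adjusted p = 0.095), over a range of -3.52 to -0.55 log2. Lama4 was higher by 1.0 ± 0.21 (SE, edgeR adjusted p = 0.00035), and not called without replicate 3 (0.71, adjusted p = 0.083). Col4a1 differed by 0.06 ± 0.22 log2 (SE, edgeR adjusted p = 0.88) and Col4a2 by -0.24 ± 0.22 (SE, edgeR adjusted p = 0.48), so neither passed. With the 60 marker-bearing pericytes left out, 25 chains were called, Lama2 was 7.83 log2 higher and Col4a1 0.04. Col18a1, not called with them (0.34, adjusted p = 0.53), was then lower, at -1.97 log2 (edgeR adjusted p = 0.007). Without the 58 deep pericytes 24 chains were called, and Col18a1 was at -1.96 log2 (edgeR adjusted p = 0.0036). With the 185 pericytes that carried 3 or more UMIs of any other class's markers left out, 11 chains were called. Those markers include Cspg4, which averaged 345 CPM in pericytes and 574 CPM in OPCs, so the cells left out need not hold foreign RNA. Smooth muscle markers in pericytes summed to 146 to 2572 CPM against 23501 to 32170 CPM in smooth muscle itself, and their part in the pericyte values was not tested.

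**Figure D4:**
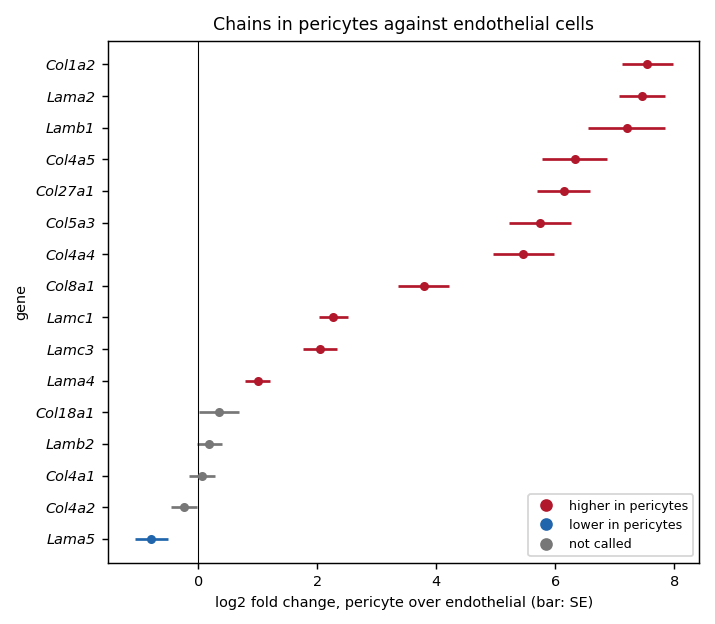
Log2 change, pericyte over endothelial, of the chains with at least 20 CPM in one of the 2 classes (points, with the SE as a bar); red is called higher in pericytes, blue called lower and grey not called. Col1a2, Lama2 and Lamb1 lie near 7, Col4a1 and Col4a2 near 0, and Lama5 at -0.79.

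Pericytes against all other classes had 25 of 40 chains called higher and 0 lower, against 19.7% and 1.98% of all genes. The unadjusted count lower was 0 and DESeq2 called 22 higher and 0 lower. Here too the calls went beyond the 16 chains at 20 CPM or more in pericytes. Col6a1, called at a mean of 4.63 CPM, changed sign without replicate 1. The median log2 change was 2.95 over the chains and 0.29 over all genes. Without replicate 1 the count called was 17, without the 60 cells 24, without the 58 cells 19 and with the 185 cells left out 13. Beyond those above, Col8a1, a short-chain collagen of vessel walls, stood at 45.2, 33.2 and 57.5 CPM, Col27a1 at 23.2, 33.2 and 83.1 CPM (call lost without replicate 3, with 1.10 log2) and Col5a3 at 12.7, 39.9 and 32.0 CPM. Col1a2, the second chain of type I collagen, stood at 57.9, 53.2 and 63.9 CPM. The summed level of Dcn, Lum and Slc6a13 in pericytes was 61.4 to 166 CPM, against 10156 to 13531 CPM in fibroblasts, with Lum at 0; the part of fibroblast RNA in the Col1a2 value was not tested.

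Smooth muscle, the contractile coat of arterioles, had 12 of 40 chains called higher and 0 lower against the other classes, against 12.3% and 3.90% of all genes. At an unadjusted p 1 chain was lower, and DESeq2 called 12 higher and 0 lower. The median log2 change was 1.74 over the chains and -0.13 over all genes. Col8a1 stood at 66.3 and 44.4 CPM, Col1a2 at 95.2 and 148 CPM and Col18a1 at 99.4 and 59.2 CPM. Against pericytes, 1 chain was called higher and 4 lower, against 3.85% and 5.35% of all genes. Lama5 was the higher one, by 1.28 ± 0.38 log2 (SE, edgeR adjusted p = 0.028, 2 of 2 libraries), a call lost without replicate 2 (1.09, adjusted p = 0.10) or replicate 3 (1.0, adjusted p = 0.23). Lama2 was lower by -3.19 ± 0.66 (SE, edgeR adjusted p = 0.0012, 2 of 2 libraries), and Lama4 by -1.82 ± 0.42 (SE, edgeR adjusted p = 0.0034), not called without replicate 1 (-1.53, adjusted p = 0.22). Col5a2 and Col12a1, at 0 in smooth muscle, were the other two, and neither was called without the 58 deep pericytes (edgeR adjusted p = 0.12 and 0.47). In all, 2, 2 and 3 chains were called without replicates 1, 2 and 3, against 6 without the 60 cells and 5 without the 58. Without the 60 cells Col18a1 was higher in smooth muscle than in pericytes, by 3.60 log2 (edgeR adjusted p = 0.00016). Pericyte markers in smooth muscle summed to 2012 to 3966 CPM, against 7122 to 15510 CPM in pericytes, and most of the sum was Vtn. Vtn, Kcnj8 and Abcc9 averaged 2912, 44.8 and 32.1 CPM in smooth muscle, against 11315, 440 and 421 CPM in pericytes. The part of pericyte RNA in these values was not tested.

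Fibroblasts had 28 of 40 chains called higher and 0 lower against the other classes, against 9.05% and 1.76% of all genes. At an unadjusted p 1 was lower, and DESeq2 called 25 higher and 0 lower. Col13a1, Col3a1 and Lama1 averaged 477, 538 and 490 CPM in fibroblasts, against 0.955, 7.84 and 1.73 CPM in the next of the 7 classes. Such chains passed the low-count filter largely through fibroblasts, so their direction was given and their count is no separate support. Col8a1, also among the 28, was not called without replicate 2 and changed sign without replicate 1. The median log2 change was 4.69 over the chains and -0.07 over all genes. The fibril-forming type I collagen was at 1064 and 715 CPM for Col1a2 and at 604 and 830.4 CPM for Col1a1, and its partner Col3a1 at 564 and 511 CPM. The 7 fibroblasts of replicate 2, outside the means, gave 1509, 1584 and 981 CPM for these 3 genes. Col15a1 and Col18a1, the multiplexins, which lie in and next to basement membranes, stood at 1029 and 766 CPM and at 549 and 422 CPM. Col13a1, a collagen that spans the cell membrane, stood at 519 and 434 CPM, Col12a1, which decorates fibrils, at 425 and 268 CPM, and Col6a1, of the microfibrils, at 245 and 217 CPM. Col23a1, Col6a2, Col5a2, Col27a1, Col26a1, Col7a1 and Col16a1 were also called higher there, at 39.1 to 168 CPM on average.

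Compared with pericytes, fibroblasts had 21 chains called higher and 3 lower, against 3.96% and 5.40% of all genes. Without replicate 1, 13 chains were called in all, without the 60 cells 22 and without the 58 cells 23. Col1a2 was higher by 3.84 ± 0.30 log2 (SE, edgeR adjusted p = 4.1e-11, 2 of 2 libraries) and Col18a1 by 3.64 ± 0.36 (SE, edgeR adjusted p = 3.2e-09, 2 of 2). Col15a1 stood at 0 in pericytes, where 3 counts would have meant 3.47, 19.9 and 9.59 CPM. Col4a1 was higher by 0.93 ± 0.27 log2 (SE, edgeR adjusted p = 0.025), a call lost without replicate 1 (0.80, adjusted p = 0.43), without replicate 2 (0.82, adjusted p = 0.093) and with no library block (0.89, adjusted p = 0.088). Pericyte markers in fibroblasts summed to 3513 to 3906 CPM, nearly all of it Vtn. Vtn, Kcnj8 and Abcc9 averaged 3669, 31.6 and 8.88 CPM in fibroblasts, against 11315, 440 and 421 CPM in pericytes. The part of pericyte RNA in these values was not tested. Endothelial markers in fibroblasts ran from 139.9 to 1520 CPM. The 3 chains called lower were Lama5, Col4a4 and Col8a1, of which Lama5 and Col4a4 had no UMI in fibroblasts, and Col8a1 3 UMIs in the 2 libraries. The Lama5 call was lost without replicate 1 (edgeR adjusted p = 0.46), the Col4a4 call without replicate 1 (adjusted p = 0.37) or replicate 3 (adjusted p = 0.10), and the Col8a1 call (adjusted p = 0.0495) without any 1 of the libraries (adjusted p = 0.11 to 0.36) and with DESeq2 (adjusted p = 0.19).

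In astrocytes 15 of 40 chains were called higher and 3 lower than in the other classes, against 30.8% and 19.2% of all genes, with a median log2 change of -0.30 over the chains and 0.09 over all genes. DESeq2 called 14 higher and 12 lower. Col11a2, which belongs to the minor fibrillar collagens of cartilage, stood at 145, 156 and 115 CPM, Col9a3, of the collagen that coats such fibrils, at 71.8, 63.8 and 62.2 CPM, and Col16a1 at 38.3, 73.1 and 43.3 CPM. These 3 genes were higher by 4.73 ± 0.21, 4.22 ± 0.26 and 4.37 ± 0.29 log2 (SE, edgeR adjusted p = 3.1e-20, 9.8e-16 and 5.4e-15, 3 of 3 libraries each). Col2a1, the main collagen of cartilage, was at 1.39 CPM and Col9a1 at 0.756 CPM on average. Lamb2 stood at 67.9, 113 and 102 CPM and Col27a1 at 18.4, 18.8 and 33.4 CPM in astrocytes. Set against endothelial cells, 17 chains were higher in astrocytes and 11 lower, against 31.4% and 34.2% of all genes. Lama2 was 6.48 ± 0.35 log2 higher (SE, edgeR adjusted p = 2.7e-17), while Col4a1 was lower, at -4.49 ± 0.26 log2 (SE, edgeR adjusted p = 2.3e-17, lower in 3 of 3).

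OPCs had 13 of 40 chains called higher and 3 lower, against 25.4% and 15.4% of all genes; the median log2 change was 0.36 over the chains and 0.06 over all genes. DESeq2 called 11 higher and 7 lower. Col16a1 stood at 141, 97.5 and 144 CPM, Col9a3 at 109, 135 and 72.8 CPM, Col11a2 at 80.3, 75.0 and 119.6 CPM and Col11a1, the partner of Col11a2, at 79.2, 75.0 and 71.1 CPM. With endothelial marker-bearing cells left out, 10 chains were called in all. Col11a1 was 6.81 ± 0.45 log2 higher than in the other classes (SE, edgeR adjusted p = 3.1e-14, 3 of 3 libraries) and stood at 7.14 CPM in astrocytes. It passed the low-count filter largely through OPCs, so its direction was given and its test is no separate support. Col5a3, Col18a1, Col9a2, Col20a1, Lama4 and Col27a1 were also called higher in OPCs, at 23.9 to 45.4 CPM on average. Pericyte markers in OPCs summed to 4.53 to 840 CPM, against 7122 to 15510 CPM in pericytes, and the part of pericyte RNA in these values was not tested. In the oligodendrocytes of replicates 1 and 3 (12 and 25 cells) Col9a3 stood at 454.5 and 634 CPM.

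Ependymal cells, which line the ventricle, had 18 of 40 chains called higher and 1 lower, against 31.7% and 18.6% of all genes, with medians of 0.73 log2 over the chains and 0.08 over all genes. DESeq2 called 13 higher and 7 lower. Col8a2, the partner of Col8a1, stood at 91.3, 73.0 and 105 CPM and was 8.68 ± 0.36 log2 higher than in the other classes (SE, edgeR adjusted p = 9.7e-19, 3 of 3), a call lost with DESeq2 (7.16, adjusted p = 0.082). With 5.31 CPM in the next of the 7 classes, Col8a2 passed the low-count filter largely through ependymal cells. Its direction was then given, and its test is no separate support. Lamb2 stood at 71.9, 119 and 76.8 CPM, Col5a3 at 51.5, 63.8 and 68.0 CPM, Col6a5 at 42.2, 9.12 and 37.9 CPM and Col12a1 at 28.3, 6.08 and 42.4 CPM. For Col6a5 and Col12a1 the value of replicate 2 was the lowest (48 cells there). Col5a2, Lamb1, Col9a3 and Col4a4 were also called higher there, at 23.7 to 35.0 CPM on average. The 1 chain called lower, Col4a2 by -0.61 ± 0.24 (SE, edgeR adjusted p = 0.029), was at 0.17 log2 without replicate 3 and was called higher, by 1.65 log2, with endothelial marker-bearing cells left out of the other classes. With cells left out that carried another class's markers, 4 chains were called in all. In microglia Col27a1 stood at 64.6, 98.4 and 78.1 CPM.

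Within the endothelial class, arterial, capillary and venous zones (1045, 930 and 353 cells) were formed from a random part of the UMIs and tested on the UMIs left over, so that no UMI did both. The other 1938 endothelial cells were in no zone, and each zone was set against the 2 other zones only. The capillary cells were a single subcluster led by heat shock genes (Hspa1b, Hspa1a, Hsph1, Hspe1 and Hspb1), with Car4 also among its leading genes. The venous cells were a single subcluster led by Ackr1, Vcam1, Lcn2, Icam1, Lrg1 and Sele. Zone and such cell states cannot be told apart here, and their part in the zone comparisons was not tested. The fit covered 9176 genes, 11 of them chains. Of these, 7 were called higher in the arterial zone and 0 lower, against 10.0% and 7.37% of genes. At an unadjusted p 1 was lower, and DESeq2 called 7 higher and 0 lower. Summed tested UMIs in arterial, capillary and venous cells were 399, 4 and 2 for Col18a1 and 176, 18 and 6 for Col14a1. They were 108, 13 and 12 for Lama3 and 66, 1 and 11 for Col5a2. These chains passed the low-count filter through arterial cells, so their direction was largely set by it. The count of 7 describes levels and is no separate support. Col18a1, whose cleaved end is endostatin, stood at 80.4, 84.3 and 74.3 CPM in arterial cells, against 0.425, 2.41 and 1.499 CPM in capillary cells and 1.17, 0 and 0 CPM in venous cells. It was 6.41 ± 0.28 log2 higher (SE, edgeR adjusted p = 1.0e-16, 3 of 3 libraries), and the zones did not overlap. The arterial zone was itself uneven, with 149 ± 3.38 CPM in the subcluster led by Pi16 and Igfbp4, and 42.1 ± 3.67 CPM in that led by Gkn3 (SD, n = 3 each, no test).

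Col14a1, a collagen that binds fibrils, stood at 35.1, 52.5 and 29.1 CPM in arterial cells, against 5.10, 9.65 and 1.499 CPM in capillary and 1.17, 3.24 and 3.58 CPM in venous cells, and was 3.47 ± 0.28 log2 higher (SE, edgeR adjusted p = 7.7e-11, 3 of 3). Lama3 stood at 27.1, 22.5 and 12.99 CPM, against 2.98, 2.41 and 3.75 CPM in capillary and 3.51, 3.24 and 5.97 CPM in venous cells, a difference of 2.52 ± 0.31 log2 (SE, edgeR adjusted p = 3.0e-07, 3 of 3). Col5a2, Lamc1, Lama5 and Col4a1 were higher by 3.51, 0.84, 0.60 and 0.35 log2 (edgeR, adjusted p = 1.5e-06, 2.5e-05, 0.00031 and 0.0055). The Col4a1 call was lost without replicate 3 (0.36, adjusted p = 0.10) and without the library block (0.37, adjusted p = 0.38). Markers of smooth muscle summed to 9.91 to 11.2 CPM and those of fibroblasts to 0 to 1.91 CPM in arterial cells, against 23501 CPM or more of the first in smooth muscle and 10156 CPM or more of the second in fibroblasts. Astrocyte markers summed to 264, 116 and 169 CPM in arterial cells, against 162, 65.2 and 130 CPM in capillary and 96.6, 45.3 and 74.0 CPM in venous cells, and their part in these values was not tested. Capillary cells had 0 chains called higher and 4 lower, against 4.44% and 7.51% of genes, and venous cells 0 higher and 4 lower, against 8.64% and 5.63%. The zones were set against each other, so these lower calls are not independent of the higher calls in arterial cells. The unadjusted counts of chains higher were 0 in both, and DESeq2 called 0 higher and 3 lower in capillary, 0 higher and 2 lower in venous cells. The capillary count fell to 0 without replicate 1 and to 1 without replicate 3, and the venous count to 1 without either.

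**Figure D5:**
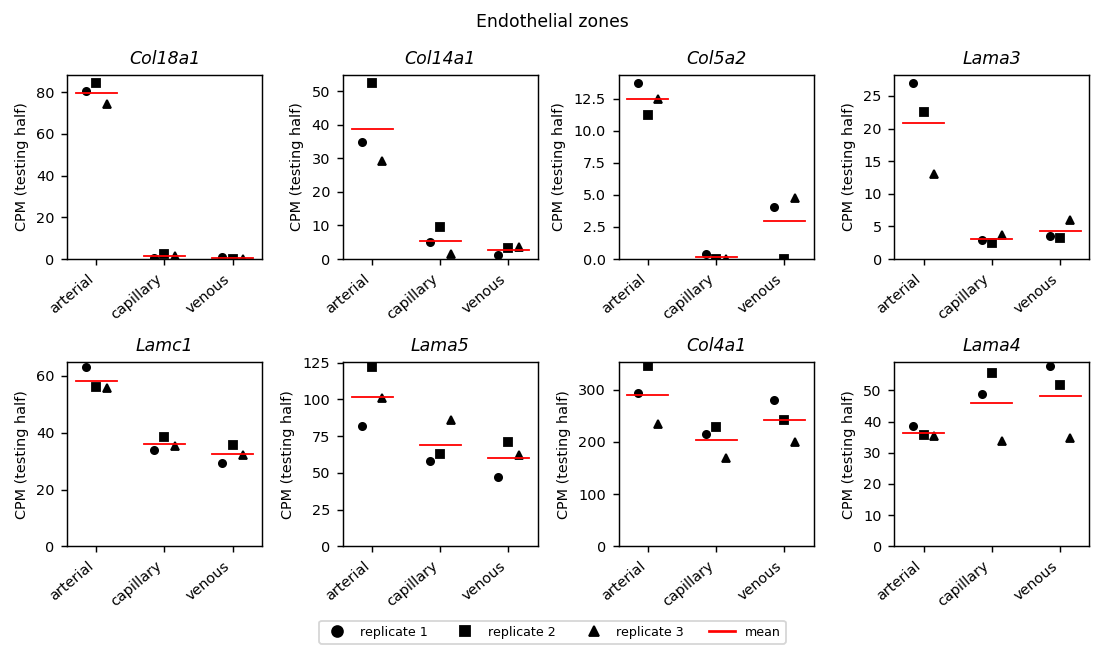
CPM in the UMIs kept for testing (vertical axes, linear from 0) of 8 chains in the arterial, capillary and venous zones of endothelial cells, 1 symbol per library and the mean as a red line. Col18a1 is at 74.3 to 84.3 CPM in arterial cells and at most 2.41 CPM in the other two zones, while Lama4, in the last panel, overlaps between zones.

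Genes that act with these chains were counted as 4 lists. The list counts are given with all cells only, and not without the 60 marker-bearing or the 58 deep pericytes. Endothelial markers in pericytes summed to 1822 to 4786 CPM, and their part in the list counts was not tested. Of 19 tested basement membrane partners (nidogens, perlecan, agrin and others), 16 were called higher and 0 lower in pericytes, against 19.7% and 1.98% of all genes, with a median log2 change of 2.68 over the list and 0.29 over all genes. In fibroblasts 13 were higher and 0 lower (9.05% and 1.76% of all genes, median 4.31 against -0.07), and in endothelial cells 13 and 0 (29.9% and 8.37%, median 2.36 against 0.19). Egflam, which ties the membrane to dystroglycan, was 6.37 ± 0.41 log2 higher in pericytes (SE, edgeR adjusted p = 7.6e-15), and Fn1, fibronectin, 4.72 ± 0.20 log2 higher in endothelial cells (SE, edgeR adjusted p = 1.6e-20). Of 26 tested collagen folding and cross-linking genes, 13 were higher and 0 lower in fibroblasts, against 9.05% and 1.76% of all genes, with Pcolce, an enhancer of procollagen cleavage, at 9.68 ± 0.34 log2 (SE, edgeR adjusted p = 5.3e-21). In smooth muscle 8 of the 26 were higher and 0 lower, against 12.3% and 3.90% of all genes, with Lox, the cross-linking lysyl oxidase, at 6.34 ± 0.84 log2 (SE, edgeR adjusted p = 9.1e-07).

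Of 19 tested receptor genes, pericytes had 14 higher and 1 lower than endothelial cells, against 14.1% and 11.0% of all genes, with Itga7, a laminin-binding integrin chain, 7.54 ± 0.41 log2 higher (SE, edgeR adjusted p = 6.2e-16) and Itga6, another laminin-binding chain, lower by -2.28 ± 0.30 (SE, edgeR adjusted p = 1.5e-07). In astrocytes against the other classes 11 were higher and 5 lower, against 30.8% and 19.2% of all genes, with Dtna, of the dystrophin complex, 4.93 ± 0.16 log2 higher (SE, edgeR adjusted p = 6.8e-25). Of 20 tested proteases and inhibitors, 12 were higher and 0 lower in fibroblasts, against 9.05% and 1.76% of all genes, with Ctsk, a collagen-cutting cathepsin, at 8.73 ± 0.47 log2 (SE, edgeR adjusted p = 2.3e-16). In OPCs 8 were higher and 3 lower, against 25.4% and 15.4% of all genes, so the lower share is at the background, with Mmp16 at 7.96 ± 0.35 log2 (SE, edgeR adjusted p = 2.3e-18).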

How the data were processed

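The authors deposited raw UMI counts per gene and cell for 3 libraries; the submitters' processing notes name Cell Ranger (no version) and mm10. Of 31053 symbols, 2411 had been altered (dots for hyphens, or a leading X) and were restored. Cells with at least 500 UMIs and 300 genes and at most 20% mitochondrial counts passed, in 6412, 954 and 5065 of 7241, 1062 and 6456 barcodes, and Scrublet then removed 190, 8 and 133 doublets. Cells were clustered with scanpy 1.11.5 and leidenalg 0.10.2 (2000 variable genes, 30 components, resolution 1) and named by markers; 1191 cells stayed unnamed. The mural cluster was clustered again (20 components, resolution 0.5), a step decided after seeing that smooth muscle had merged with pericytes. Counts were summed per library and class (at least 10 cells, 2 libraries; 32 profiles, 12 classes, 18 residual degrees of freedom) and tested with edgeR 4.0.16 (quasi-likelihood, TMM, filterByExpr, Benjamini-Hochberg); DESeq2 1.42.0, RLE scaling, no filter, no block, each library left out and other cell filters were alternatives. Zones had 9 profiles and 4 residual degrees of freedom. The code was tested on simulated data.

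The members and lists were chosen with earlier results of these data known. Chains are given by library where they were among the 4 highest of a class at 20 CPM or more, or were called higher there with at least 20 CPM and 10 UMIs; of the lists, the largest and smallest changes may be named. Col4a3, Col4a6, Lama3, Col14a1, Lamc1 and other values outside this rule were added after their values were seen. Where a floor is given it is 3 counts. Positions are from GENCODE for GRCm38.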

Additional observations from a re-analysis of the deposited data

Results flagged for a closer look

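Cells that joined no class also held collagen and laminin RNA. In the unnamed cluster of 555 cells led by Ppbp, Nrgn and Gp9, 0.0802% of UMIs came from the 55 chains, above the 0.000374% that 3 counts would give. Lamb2 and Col4a1 led with 154 and 152 UMIs. In the unnamed cluster of 500 cells led by Arhgap45 and Cst7 the share was 0.0166% (3 counts, 0.000314%), led by Col27a1 with 72 UMIs. In the unnamed cluster of 136 cells led by Top2a and Ube2c it was 0.0386% (3 counts, 0.000670%), led by Col9a3 with 26 UMIs. These cells entered no comparison.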

How the results depend on the processing

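Of 225 calls of single chains, 67 kept direction but missed the threshold without at least 1 of the 3 libraries. Changes of sign are counted apart, with 3 without replicate 1, 0 without replicate 2 and 2 without replicate 3. Chains that the low-count filter dropped from a refit are in neither count. Direction and threshold were kept by 188 calls with DESeq2, 220 with RLE scaling and 214 with no replicate block. The number of chains called in endothelial cells was 30 with DESeq2, against 11. With smooth muscle set against pericytes it was 3 with DESeq2 and 3 with no replicate block, against 5. In capillary cells 1 chain was called with no replicate block, against 4, and in venous cells 2 with DESeq2 and 2 with no replicate block, against 4. Leaving out a library gave 0 to 4 chains in capillary cells, 1 to 6 in venous cells, 2 to 3 for smooth muscle against pericytes and 13 to 21 for fibroblasts against pericytes.

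With cells carrying 3 or more UMIs of another class's markers left out, 4 chains were called in ependymal cells, 13 in pericytes and 11 for pericytes against endothelial cells. Such markers were on 46 of 58 smooth muscle cells and 48 of 50 fibroblasts, so no value could be had there. The summed level was then 813 CPM in endothelial and 387 CPM in ependymal cells. Some markers were also held by classes other than their own. Vtn and Pdgfra averaged 3669 and 887 CPM in fibroblasts, and Aqp4 and Gja1 469 and 507 CPM in ependymal cells. The cells left out need not hold RNA of another class. The 3 alternatives chosen after seeing the data left out endothelial marker-bearing cells from the other classes, the erythrocyte class, or the pericyte subcluster with the most UMIs per cell. The first gave 10 chains in OPCs against 16, 9374.5 CPM in fibroblasts and 2246 CPM in pericytes, and the last gave 2247 CPM in pericytes. Clustering on all variable genes gave 8407 CPM in fibroblasts.

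Calls of single chains changed sign in 13 instances over all alternatives. With endothelial marker-bearing cells left out, Col4a1 was at 0.10 log2 and Col4a2 at 0.018 in OPCs, Col4a1 at 0.13 in astrocytes and Col4a2 at 1.65 in ependymal cells. In ependymal cells with other marker-bearing cells left out, Col4a2 was at 0.31, Col9a1 at -2.14 and Lama5 at -1.78. Without the deepest pericyte subcluster, Col6a1 in pericytes was at -1.69. Over the fits without 1 library, Lama1 in OPCs ran from -1.24 (without replicate 3) to 4.32, Col4a2 in ependymal cells from -0.76 to 0.17 (without replicate 3), Col8a1 in fibroblasts from -2.53 (without replicate 1) to 4.85, Col6a1 in pericytes from -1.37 (without replicate 1) to 5.80 and Col13a1 in pericytes against endothelial cells from -0.022 (without replicate 1) to 5.18. The cause of these changes was not tested. Fibroblasts and smooth muscle rest on 2 libraries of 16 to 35 cells, so low chains there were not measurable at this depth.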
